A study of Mus musculus with 18 samples.

Results

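Tumour necrosis factor (Tnf) and 9 genes of its signalling system were followed in the brains of Cx3cr1-Cre/Ert2+; NuTRAP+ mice: the ligands Tnf and Tnfsf9, the receptors Tnfrsf1a and Tnfrsf1b, the receptor-bound proteins Traf1, Traf2, Birc3 and Ripk1, and the TNF-induced genes Tnfaip2 and Tnfaip8. The members were picked by gene symbol, and all 10 were found among the 36172 genes of the count table. In these mice tamoxifen activates Cre in cells that express Cx3cr1, in the brain mainly microglia but also the macrophages at its borders, and Cre switches on a GFP-tagged ribosome. All 9 mice had this genotype and had received tamoxifen some weeks before. A single dose of LPS (lipopolysaccharide from the bacterial outer membrane) at 5 mg/kg went into the peritoneum of 4 females and 1 male, PBS into that of 2 females and 2 males, and brain was taken after 24 h. Translating ribosome affinity purification (TRAP) gave 2 libraries per mouse, the input (whole brain lysate) and the positive fraction (RNA held on the tagged ribosomes by an anti-GFP antibody). The positive fraction is therefore meant to report RNA on the tagged ribosomes, and the input reports all RNA of the lysate.

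TNF is made as a membrane protein that the protease ADAM17 releases from the cell. It signals through TNFR1 (Tnfrsf1a), which many cell types carry, and TNFR2 (Tnfrsf1b), which is found largely on immune and endothelial cells. At TNFR1 the kinase RIPK1, the adaptor TRAF2 and the ubiquitin ligases cIAP1 (Birc2) and cIAP2 (Birc3) form a complex that turns on NF-kB, or that can lead to cell death when this ubiquitination fails. In the brain microglia are known as a main source of TNF after LPS.

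The input library of LPS animal 271 held 1252 counts and was left out. The other 17 libraries (4 each of Positive PBS, Input PBS and Input LPS, and 5 of Positive LPS) held 22968939 to 35123345 estimated counts. All values below are estimated counts divided by a size factor per library (normalised counts), and a gene was called where its edgeR quasi-likelihood p adjusted over 14803 tested genes was under 0.05 and its log2 fold change beyond 0.32. The 10 microglial marker genes, Cx3cr1 and P2ry12 among them, were all called higher in the positive fraction than in input, with a median log2 difference of 4.22 in PBS animals. Their summed level in the positive fraction overlapped between treatments, at 225766 to 268099 in PBS and 197815 to 274424 in LPS animals, but 7 of the 10 moved there with LPS. Among them P2ry12 fell by 2.47 on the log2 scale (adjusted p = 4.11e-08 in edgeR), Tmem119 by 0.86 and Sall1 by 0.44, while Itgam rose by 0.85, C1qb by 0.52 and C1qa by 0.49. Border macrophage markers were enriched too, by a median of 3.95 in PBS animals, and 5 of 6 fell with LPS in the positive fraction. Endothelial markers had a median enrichment of 1.45 in PBS animals, with 7 of 8 called higher, and 0.72 in LPS animals. With LPS 3 of these 8 fell and 1 rose in the positive fraction. Neuron markers were not depleted in PBS animals, with 3 of 8 called higher, none lower and a median of 0.11. Astrocyte markers had a median of -0.25 there, with 1 of 8 called higher and 3 lower. All 8 oligodendrocyte markers were called lower (median -1.99). The positive fraction thus held endothelial, neuron and astrocyte marker RNA too, and "on the tagged ribosomes" stands below for all RNA of this fraction. In bulk RNA, fewer cells of a type and less RNA per cell cannot be told apart.

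After LPS all 10 members rose in the positive fraction, where 19.0% of all tested genes were called higher and 14.9% lower. In input 7 of the 10 rose, against 7.16% of tested genes called higher and 5.26% lower, and Tnfaip8, Traf1 and Traf2 were not called there. Oligodendrocyte markers moved the other way in input, with 7 of 8 called lower (median -0.71) and a summed level of 103693 to 163331 after PBS and 66598 to 95245 after LPS, and 3 of 8 neuron markers were called lower in the positive fraction (median -0.26). The part of these cells in the members' change was not tested. The members' median log2 change was 1.26 on the tagged ribosomes and 0.86 in input, beside 0.01 and 0.00 over all tested genes. The LPS and PBS libraries did not overlap for 9 members in the positive fraction (17.1% of tested genes were higher without overlap) and for 7 in input (12.6%). Traf1 was the member that overlapped in the positive fraction. All 10 members passed the filter on low counts. Traf1 passed it through Input PBS and Positive LPS alone, so within the positive fraction only through the group where it was high. High values in these groups also raise its difference of the LPS effect between fractions. Tnf passed the filter only through the LPS groups, where it was high, so its presence among the tested genes already depended on its response. The same holds for every gene of the lists described further on that passed through LPS groups alone, and their number or names are given with each list that has any.

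**Figure D1:**
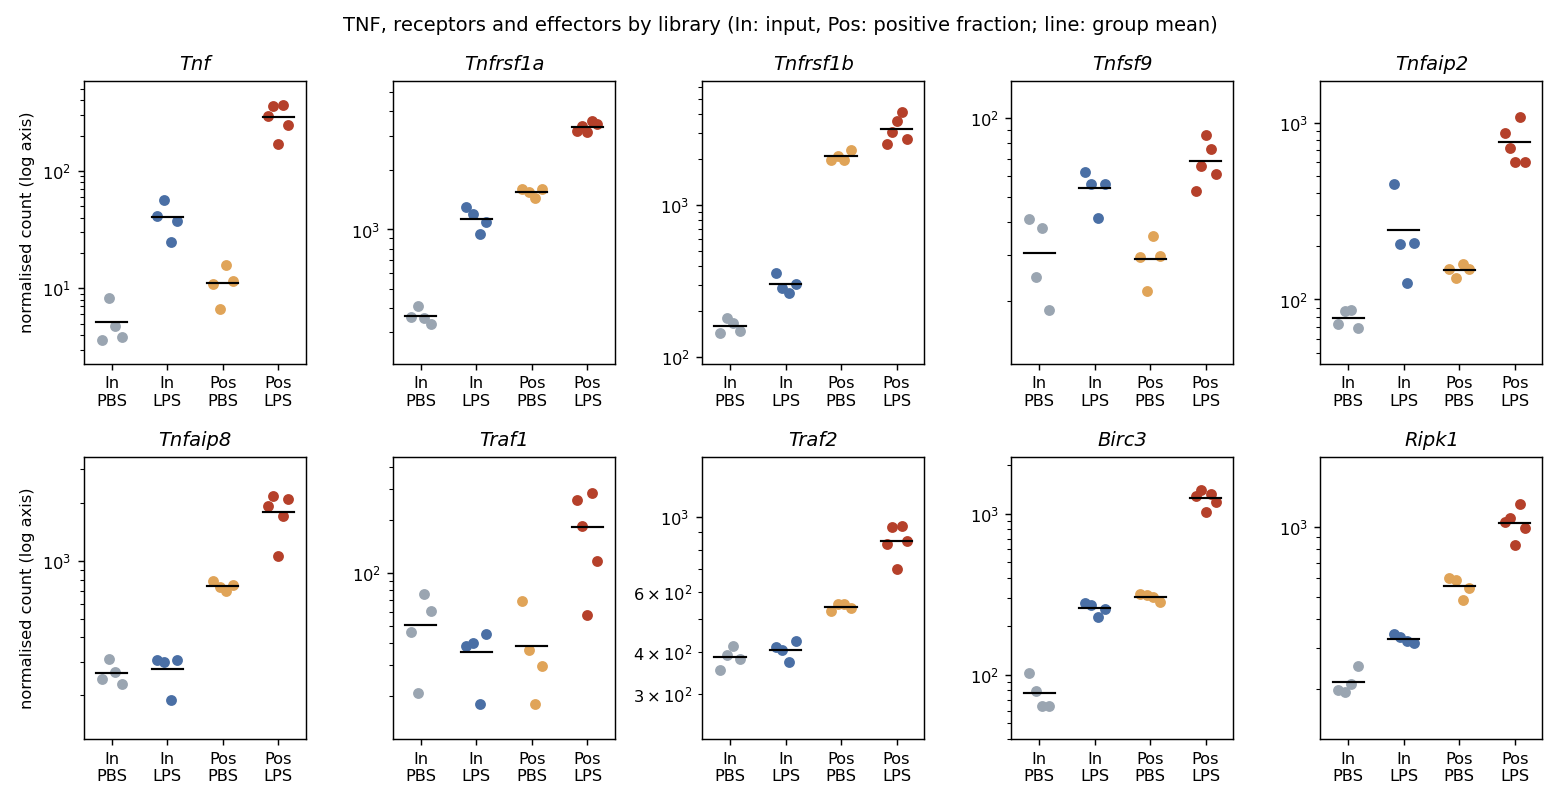
Normalised counts of the 10 members in 17 libraries on log axes, with 1 point per library, grouped by fraction and treatment, and a line at the group mean. In 9 of the 10 panels every Positive LPS library lies above every Positive PBS library, the exception being Traf1.

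The LPS effect itself differed between the fractions for 4 members: the log2 change was larger in the positive fraction for Traf1 (by 2.75 ± 0.68, SE), Tnfaip8 (by 1.21 ± 0.26) and Traf2 (by 0.57 ± 0.14), and smaller for Tnfrsf1a (difference of -0.53 ± 0.13). The adjusted p of these differences was 0.0173, 0.00741, 0.0152 and 0.0137 in the edgeR test, and of all tested genes 5.46% were called with a larger and 1.42% with a smaller effect in the positive fraction. For Tnf the difference was 1.74 ± 0.54 with an adjusted p of 0.0632. With the animal as a replicate block, which pairs the fractions of 1 mouse, it was 1.65 with an adjusted p of 0.0264. Without animals 506 and 507 (both fractions of each) the sizes for the 4 called members were 2.81, 1.27, 0.60 and -0.51, in the same order, and none was called.

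**Figure D2:**
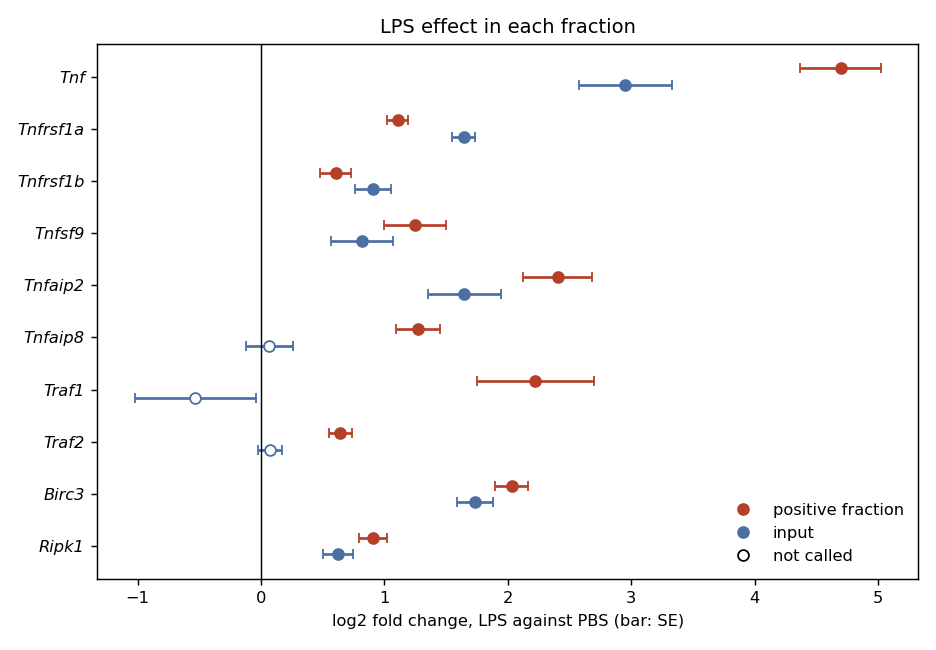
Fitted log2 fold change of LPS against PBS for each member, with its SE as a bar, in the positive fraction and in input. Open points were not called, and Tnfaip8, Traf1 and Traf2 are the members with an open point, all in input.

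Tnf, the ligand itself, lies at chr17:35199391-35201996 on the minus strand (mm10). In input its normalised counts were 3.65, 3.81, 4.75 and 8.25 after PBS and 24.6, 37.8, 41.1 and 57.0 after LPS. In the positive fraction they were 6.66, 10.9, 11.5 and 15.7 after PBS and 169.7, 248, 297, 355 and 364 after LPS. Every LPS library stood above every PBS library of its fraction, and the PBS values rest on few reads, with 4 to 8 estimated counts per input library and 7 to 12 per positive library. Summed over 4 libraries these were 21 counts (exact 95% Poisson interval 12.999 to 32.1, counting error only) in Input PBS and 38 (26.9 to 52.2) in Positive PBS. The log2 change was 4.70 ± 0.33 in the positive fraction, a 25.9-fold rise with an adjusted p of 5.93e-09 in edgeR, and 2.95 ± 0.38 in input, a 7.74-fold rise with an adjusted p of 2.72e-05.

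A pair of stretches of the gene is shown, one where its transcription starts and one that is known for setting how long its RNA lasts. The first is the RefSeq promoter of Tnf, the 250 bases before its start at chr17:35202008-35202257 (GRCm38.p6, minus strand), with the capitals marking a TATAAA match 29 to 24 bases before the start and a GGGCGG match, the core of a GC box, on the opposite strand 49 to 44 bases before it.
Tnf promoter: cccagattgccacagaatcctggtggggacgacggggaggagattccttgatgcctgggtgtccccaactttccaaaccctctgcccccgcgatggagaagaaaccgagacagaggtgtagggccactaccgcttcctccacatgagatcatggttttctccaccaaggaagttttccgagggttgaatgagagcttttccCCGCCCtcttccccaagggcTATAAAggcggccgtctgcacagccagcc
Windows were given for 8 of the members, with 9 windows in all as Ripk1 has a pair. TATAAA on either strand was found in the window of Tnf alone, beside 12.4% of all 32851 windows of this length. GGGCGG on either strand was found in windows of Tnf, Tnfrsf1b, Tnfaip2 and Ripk1, beside 32.7% of all windows. No member window held TGANTCA, the AP-1 motif (6.75% of all windows), or the kappa-B consensus of NF-kB (3.9% of all windows).

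The other stretch lies in the 3′ untranslated region, where AU-rich elements built from the nonamer TTATTTATT bind proteins such as tristetraprolin (Zfp36) that speed the decay of Tnf RNA. In the GENCODE transcript nearest to the gene model of the table, Tnf held 5 copies in an untranslated region of 764 bases, Ripk1 held 2 and Birc3 held 1, and the other 7 members held none. Of 19404 genes searched, 5.99% held at least 1 copy. A window of 30 bases is shown for these 3 genes, with copies in capitals, at chr17:35199680-35199709 (minus strand), chr13:34035873-34035902 (plus) and chr9:7848772-7848801 (minus) of GRCm38.
Tnf: taTTATTTATTATTTATTTATTATTTATTt
Ripk1: atTTATTTATTTATTttgtgtgcacatgtg
Birc3: tgTTATTTATTggatgacattttagggata
The window of Tnf holds 4 of its copies, that of Ripk1 holds 2 that overlap, and the Ripk1 window lies beyond the end of the gene model used for counting. Of the genes listed for the control of Tnf RNA, through such elements or otherwise, 11 were tested and 4 rose in each fraction. These were Zfp36 (log2 change 1.10 in the positive fraction and 1.81 in input), its relatives Zfp36l1 (0.46 and 0.54) and Zfp36l2 (0.72 and 0.56), and Mapkapk2 (1.73 and 0.37), the kinase that restrains tristetraprolin. Mapkapk2 was the one whose LPS effect differed between fractions, by 1.36 ± 0.15 with an adjusted p of 3.23e-05 in edgeR. The 7 others, Elavl1 and Khsrp among them, were not called in either fraction, and the list's median change was 0.25 on the tagged ribosomes and 0.20 in input.

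The receptor Tnfrsf1a (TNFR1; chr6:125349723-125362483, plus strand) rose in both fractions. In input it measured 331, 355, 359 and 408 after PBS and 949, 1087, 1195 and 1303 after LPS. In the positive fraction it measured 1442, 1549, 1599 and 1601 after PBS and 3119, 3166, 3361, 3463 and 3563 after LPS. The 4 groups did not overlap, rising from Input PBS through Input LPS and Positive PBS to Positive LPS. The rise was 2.15-fold in the positive fraction (log2 1.11 ± 0.09, adjusted p = 2.52e-08 in edgeR) and 3.12-fold in input (1.64 ± 0.09, adjusted p = 3.64e-09).

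Tnfrsf1b (TNFR2; chr4:145212368-145246870, minus strand) was the member most enriched on the tagged ribosomes. Input held 145, 149.6, 169 and 181 after PBS and 263, 285, 305 and 358 after LPS. The positive fraction held 1989, 1998, 2111 and 2292 after PBS and 2534, 2718, 3033, 3569 and 4099.7 after LPS. Its 4 groups kept the same order as those of Tnfrsf1a and did not overlap either, but the rise was smaller, 1.52-fold in the positive fraction (log2 0.61 ± 0.12, adjusted p = 0.000803 in edgeR) and 1.88-fold in input (0.91 ± 0.14, adjusted p = 0.000246). The difference between the fractions was -0.30 ± 0.19 and was not called (adjusted p = 0.414).

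The balance of the receptors was compared as the log2 ratio of Tnfrsf1b to Tnfrsf1a counts in each library, which is not corrected for transcript length. In the positive fraction the ratio was 0.44 ± 0.09 (SD, n = 4) after PBS and -0.08 ± 0.27 (SD, n = 5) after LPS. In input it was -1.18 ± 0.10 (SD, n = 4) after PBS and -1.90 ± 0.11 (SD, n = 4) after LPS. All LPS libraries lay below all PBS libraries in each fraction, by 0.52 on the tagged ribosomes and 0.73 in input. The two-sided exact permutation p was 0.0159 and 0.0286, the smallest that these group sizes allow, and 0.0423 for both after adjustment over the 4 ratio tests made. With 1 library left out these calls held without Positive PBS 268 or Positive LPS 270 and were lost for each of the other 15, with adjusted exact permutation p of 0.0571 to 0.0762, while the differences ran from -0.59 to -0.46 and from -0.77 to -0.68. Leaving out a library of the other fraction did not change a difference, and any loss then came only from the adjustment over the 4 tests.

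**Figure D3:**
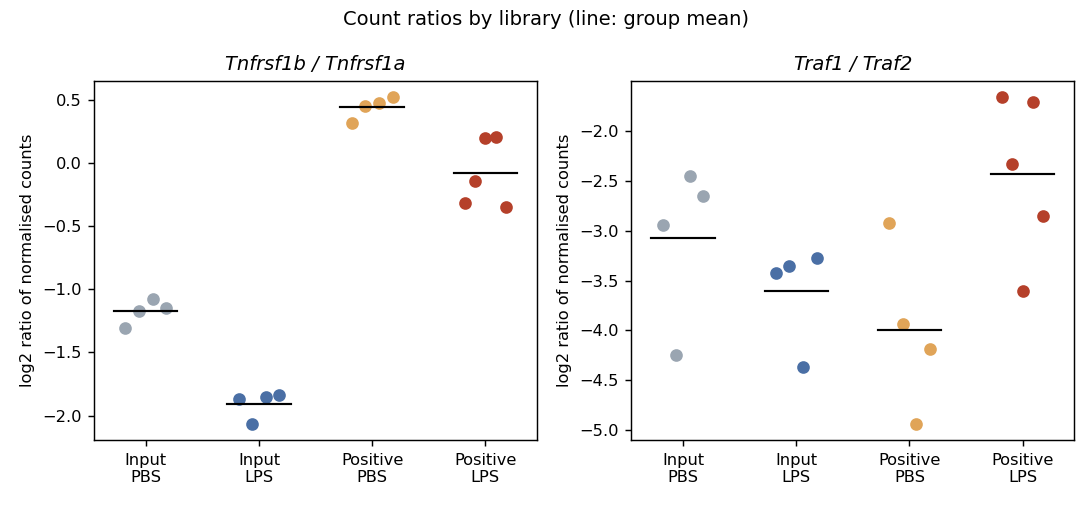
Log2 ratio of the normalised counts of Tnfrsf1b to Tnfrsf1a and of Traf1 to Traf2, with 1 point per library in the 4 groups and a line at the group mean. The receptor ratio is lower in every LPS library than in any PBS library of the same fraction, and the adaptor ratio is spread more widely within each group.

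Tnfsf9, the ligand of the costimulatory receptor 4-1BB (Tnfrsf9), lies at chr17:57105385-57107757 on the plus strand, where the gene model Gm11110 overlaps it on the other strand. It was low throughout. Input held 18.5, 24.8, 38.0 and 41.2 after PBS and 41.6, 55.9, 56.0 and 62.0 after LPS, and the lowest LPS value stood just above the highest PBS value. The positive fraction held 21.9, 29.4, 29.7 and 35.5 after PBS and 52.7, 61.2, 65.7, 76.2 and 86.5 after LPS, a rise of 2.37-fold (log2 1.247 ± 0.251, adjusted p = 0.000679 in edgeR). The rise in input was 1.76-fold (0.82 ± 0.25, adjusted p = 0.0388). That call was lost when Input LPS 266, 267 or 507, or Input PBS 272 or 506, was left out, and the change without Input PBS 506 was 0.63 with an adjusted p of 0.118 in edgeR.

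Traf1, an adaptor that is itself an NF-kB target and joins TRAF2 at TNFR2, lies at chr2:34943258-34961772 on the minus strand. Its values were 20.6, 46.0, 60.6 and 75.7 in Input PBS and 18.1, 38.5, 39.8 and 44.7 in Input LPS, with no rise. The positive fraction held 18.04, 29.6, 36.3 and 69.7 after PBS and 57.6, 117, 185, 262 and 287 after LPS. The lowest LPS library, that of animal 270, lay below the highest PBS library, that of animal 268, and the others were apart. The change in the positive fraction was 4.67-fold (log2 2.22 ± 0.47, adjusted p = 0.00111 in edgeR), while the input gave -0.53 ± 0.49 with an adjusted p of 0.518.

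Traf2, the adaptor that recruits the cIAP ligases to the receptor, lies at chr2:25517982-25546894 on the minus strand with Gm13433 on the other strand. It was nearly level in input, at 354, 381, 391 and 415 after PBS and 373, 406, 413 and 431 after LPS. In the positive fraction it rose from 529, 540.1, 553 and 554 after PBS to 701, 832, 848, 929.9 and 939 after LPS. This was a 1.56-fold change (log2 0.64 ± 0.09, adjusted p = 3.26e-05 in edgeR), and in input the change was 0.08 ± 0.10 with an adjusted p of 0.673. The log2 ratio of Traf1 to Traf2 counts went from -3.99 ± 0.83 (SD, n = 4) to -2.43 ± 0.82 (SD, n = 5) in the positive fraction, with overlap, an exact permutation p of 0.0317 and an adjusted p of 0.0423, a call lost for the same 15 libraries. In input it was -3.07 ± 0.81 (SD, n = 4) after PBS and -3.60 ± 0.51 (SD, n = 4) after LPS, with an exact permutation p of 0.343.

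Birc3, the ubiquitin ligase cIAP2, lies at chr9:7848701-7873170 on the minus strand. Input held 63.6, 64.4, 79.5 and 102 after PBS and 228, 256, 270.0 and 279 after LPS. The positive fraction held 281, 306, 313 and 316 after PBS and 1020.4, 1179, 1279, 1331 and 1408 after LPS. The 4 groups did not overlap, and the rises were 4.09-fold in the positive fraction (log2 2.03 ± 0.13, adjusted p = 2.40e-09 in edgeR) and 3.33-fold in input (1.73 ± 0.14, adjusted p = 2.38e-07). Birc2, which encodes the closely related cIAP1, changed by 0.13 in the positive fraction and was not called (adjusted p = 0.202).

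Ripk1, the kinase at the branch between survival and death signalling, lies at chr13:34002874-34035170 on the plus strand. Input held 195, 199, 212 and 252 after PBS and 318, 322, 334 and 347 after LPS. The positive fraction held 485, 544, 589.9 and 603 after PBS and 834, 989.7, 1051, 1086 and 1248 after LPS. All 4 groups were again apart, with rises of 1.87-fold in the positive fraction (log2 0.91 ± 0.11, adjusted p = 6.60e-06 in edgeR) and 1.54-fold in input (0.62 ± 0.12, adjusted p = 0.00179). The difference between fractions was 0.28 ± 0.17 for Ripk1 and 0.30 ± 0.19 for Birc3, and neither was called.

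Tnfaip2, first found as a TNF-induced gene of endothelial cells, lies at chr12:111442661-111455018 on the plus strand. Input held 69.2, 72.6, 85.6 and 87.6 after PBS and 124, 206, 208 and 451 after LPS, the highest value being that of animal 266. The positive fraction held 132, 149, 149 and 159.6 after PBS and 602, 604, 725, 878 and 1083 after LPS, with no overlap. The rises were 5.29-fold in the positive fraction (log2 2.40 ± 0.28, adjusted p = 2.87e-06 in edgeR) and 3.13-fold in input (1.65 ± 0.30, adjusted p = 0.000809). The difference between fractions, 0.76 ± 0.40, was not called (adjusted p = 0.316), and without Input LPS 266 it was 1.21 with an adjusted p of 0.0189 in edgeR.

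Tnfaip8, the founding member of a family of lipid-binding proteins linked to cell survival, lies at chr18:49979427-50093229 on the plus strand. The gene model LOC100861953 overlaps it on the same strand, so that reads of the overlap could be split between them. In input the PBS libraries held 228, 244, 265 and 311 and the LPS libraries 189, 297, 305 and 306, and the groups overlapped. In the positive fraction it went from 698, 734, 749 and 784 after PBS to 1059, 1707, 1925, 2105 and 2171 after LPS. This was a rise of 2.42-fold (log2 1.27 ± 0.18, adjusted p = 2.05e-05 in edgeR), beside a change of 0.07 ± 0.19 in input (adjusted p = 0.858). Animal 270 gave the lowest value of Tnfaip8 in both LPS groups. It was also the lowest of Input LPS for 9 of the 10 members and the lowest of Positive LPS for 7 of them, which was noticed after the values were seen.

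Each member was also compared between the fractions of the same treatment. In PBS animals 7 members were higher on the tagged ribosomes, beside 21.0% of tested genes called higher and 18.8% lower, and in LPS animals 9 were, beside 27.6% higher and 25.8% lower. Tnfrsf1b had the highest enrichment in both, 13.01-fold after PBS (log2 3.70 ± 0.15, adjusted p = 7.95e-13 in edgeR) and 10.6-fold after LPS (3.40 ± 0.14, adjusted p = 8.09e-13). Tnfrsf1a was enriched 4.26-fold and 2.94-fold, Birc3 3.92-fold and 4.81-fold, Ripk1 2.59-fold and 3.15-fold, and Traf2 1.41-fold and 2.09-fold. Tnfaip8 was enriched 2.83-fold after PBS and 6.54-fold after LPS. Tnfaip2 was enriched 1.86-fold and 3.15-fold, but its PBS value (log2 0.90, adjusted p = 0.0206) lost its call without Input PBS 268 (0.86, adjusted p = 0.0505) or Input PBS 506 (0.84, adjusted p = 0.0539). Tnfsf9 was called in neither treatment, at -0.09 ± 0.27 and 0.34 ± 0.23 on the log2 scale. Traf1 was not called after PBS (-0.39 ± 0.50, adjusted p = 0.540) and was 5.14-fold higher in the positive fraction after LPS. For Tnf the PBS value was 1.10 ± 0.45 with an adjusted p of 0.0523, or 1.09 with 0.0216 under the replicate block, and after LPS it was 7.15-fold enriched (2.84 ± 0.28, adjusted p = 8.35e-08).

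**Figure D4:**
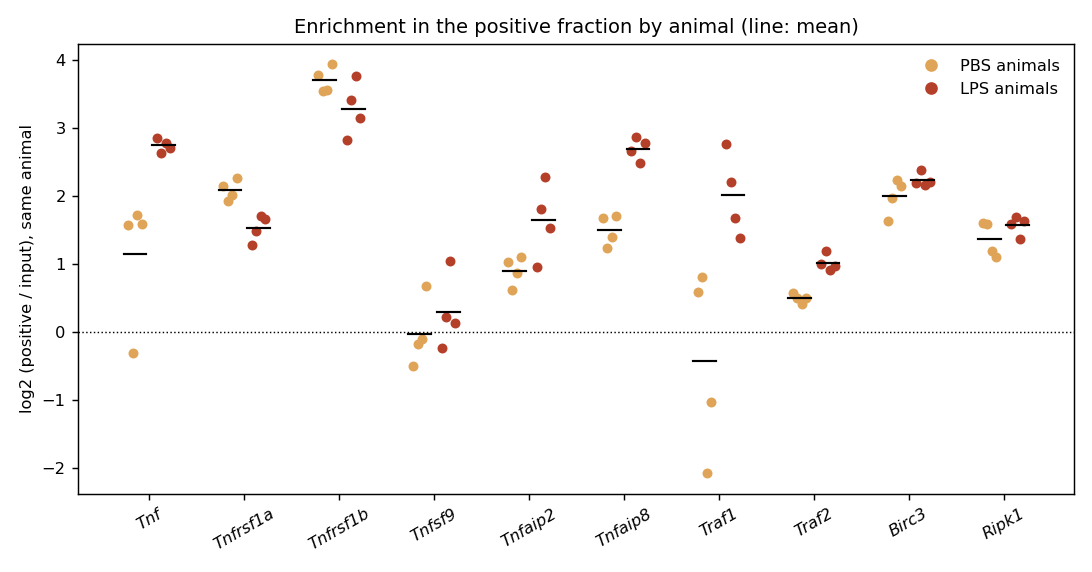
Log2 ratio of positive to input normalised counts within each of 4 PBS and 4 LPS animals, for the 10 members, with a line at the mean. The Tnf points of the LPS animals lie within 2.64 to 2.85, while those of the PBS animals run from -0.31 to 1.72.

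Within single animals the ratio of positive to input Tnf was narrow after LPS, at 2.64, 2.72, 2.78 and 2.85 on the log2 scale, although the levels in each fraction differed by more than the ratio did. After PBS it was 1.58, 1.59 and 1.72 in 3 animals and -0.31 in animal 272, values that rest on 4 to 12 counts per library. The ratio of Tnfaip8 ran from 1.24 to 1.72 after PBS and from 2.49 to 2.87 after LPS. That of Traf1 ran from -2.07 to 0.82 after PBS and from 1.39 to 2.77 after LPS, and neither gene overlapped between treatments. The split of calls in these comparisons depends on the scaling. Of the genes called between fractions, 52.8% were higher in the positive fraction in PBS animals and 51.7% in LPS animals. With size factors from all 18 libraries the shares were 37.6% and 43.2%, and with the deposited log2 values 37.0% and 41.1%. The median of all tested genes was -0.12 and -0.13 in PBS animals and -0.11 and -0.14 in LPS animals under these scalings, beside -0.00 and -0.03. The 7 and 9 members stayed called under both, and Tnf in PBS animals was called as well with the deposited values.

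Levels of different genes were compared only per kilobase of transcript. In the positive fraction after PBS, Tnfrsf1a was highest at 718 normalised counts per kilobase, ahead of Tnfrsf1b at 549 and Tnfaip8 at 311, and these ranges did not overlap. Tnf was lowest at 6.82, with a range of 4.06 to 9.56 that overlapped the range of Traf1 (7.76 to 29.98). After LPS Tnf stood at 175 per kilobase, with a range of 104 to 222, and overlapped Ripk1 (129 to 193), Tnfaip2 (160.0 to 288) and Traf1 (24.8 to 124). It did not overlap Tnfsf9 (40.8 to 67.0). Tnfrsf1a remained highest at 1547. In input Tnfrsf1a was also highest, at 169 after PBS and 526 after LPS, and Traf2 came next, at 127 and 133, with ranges that overlapped those of Tnfaip8. The level of Ripk1 is uncertain, since its transcript extends past the gene model used for counting. That of Tnfrsf1b is uncertain too, as the ends of its transcript of 3818 bases are 1095 bases off its gene model. Its place below Tnfrsf1a in the positive fraction is therefore not settled.

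Of 16 other ligands of the TNF superfamily 7 were tested. The 9 below the filter had group means of at most 27.0 normalised counts, the highest being that of Tnfsf11 in Input LPS, which is named after its value was seen. Tnfsf13b and Tnfsf8 rose and Ltb fell on the tagged ribosomes, and Tnfsf8, Tnfsf13b and Eda rose in input. The list's median change was -0.01 and 0.57 on the log2 scale, beside 0.01 and 0.00 over all tested genes. Calls in this list and those below stand beside shares of all tested genes. These were 19.0% higher and 14.9% lower on the tagged ribosomes, and 7.16% and 5.26% in input. The lists were not tested against these shares. Tnfsf13b, the B cell survival factor BAFF, went from 357 ± 30.5 (SD, n = 4) to 1246 ± 237 (SD, n = 5) in the positive fraction, a log2 change of 1.80 with an adjusted p of 3.02e-07 in edgeR. Tnfsf8, the ligand of CD30, went from 8.60 ± 4.99 to 66.0 ± 47.9 there and from 2.29 ± 1.62 to 60.3 ± 24.5 in input, and it was the 1 ligand that passed the filter through LPS groups alone. Ltb, lymphotoxin beta, went from 55.3 ± 21.4 to 24.4 ± 13.2 in the positive fraction with overlap.

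Of the other 23 receptors of the superfamily 18 were tested. On the tagged ribosomes 8 rose and 2 fell, in input 2 rose and 2 fell, and the median change was 0.36 and 0.17. So few calls in input cannot set the list apart from all tested genes. Tnfrsf9, the receptor for the product of Tnfsf9, rose from 10.9 ± 2.34 (SD, n = 4) to 73.1 ± 41.5 (SD, n = 5) in the positive fraction (log2 2.74, adjusted p = 3.54e-05 in edgeR). Cd40, the costimulatory receptor, rose from 20.5 ± 4.47 to 105 ± 40.6, and Ltbr, the lymphotoxin beta receptor, from 683 ± 46.1 to 1399 ± 138. Tnfrsf17, the plasma cell receptor BCMA, fell from 66.7 ± 16.5 to 1.67 ± 1.74, the largest change of the list. In input Fas rose from 57.1 ± 3.13 to 125 ± 12.3 and Ltbr from 291 ± 33.6 to 502 ± 47.8, while Tnfrsf25 fell from 56.9 ± 8.75 to 14.6 ± 9.25 and Tnfrsf19 from 1388 ± 76.7 to 1039 ± 119. Tnfrsf9 and Cd40 passed the filter through LPS groups alone, and of the 16 others 6 rose in the positive fraction. The means of Tnfrsf17 in Positive LPS and of Tnfrsf25 in Input LPS lay under the filter's minimum of 20. Within the fraction where each fell, it could thus pass only through the PBS group, where it was high.

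The genes listed as acting on the release of TNF from the membrane, in either direction, were 5, all tested. Adam17, the protease itself, rose from 1442 ± 128 to 2558 ± 477 in the positive fraction (log2 0.83, adjusted p = 5.59e-05 in edgeR), Rhbdf2, which escorts ADAM17 to the surface in myeloid cells, rose from 120.3 ± 41.8 to 536 ± 122, and Frmd8, a stabiliser of that pair, from 994 ± 71.0 to 1281 ± 125. In input only Rhbdf2 was called of the 5, from 29.8 ± 9.76 to 105 ± 28.1. The LPS effect differed between fractions for Adam17 (by 0.80 ± 0.19) and Frmd8 (by 0.73 ± 0.19). The medians over the list were 0.61 and 0.03.

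Of 26 genes of the TNFR1 complex and its ubiquitin system, 25 were tested. The positive fraction had 10 that rose and 1 that fell, in input 5 rose and none fell, and the median change was 0.27 and 0.16. Tnfaip3, the deubiquitinase A20 that limits NF-kB, rose from 339 ± 72.7 (SD, n = 4) to 3158 ± 1114 (SD, n = 5) on the tagged ribosomes (log2 3.22, adjusted p = 5.86e-09 in edgeR) and in input from 132 ± 20.8 to 373 ± 70.7, and the effect differed between fractions by 1.72 ± 0.31. Its partner Tnip2 rose from 445 ± 32.8 to 892 ± 54.8 in the positive fraction. Ripk3 and Mlkl, the kinase and pore protein of necroptosis, went from 53.0 ± 15.3 to 355 ± 83.2 and from 25.7 ± 6.83 to 70.1 ± 19.6, and Mlkl was the 1 gene here that passed the filter through LPS groups alone. Map3k5, the stress kinase ASK1, was the gene that fell, by 0.43 on the log2 scale, and it is named because it was the single one.

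Of 9 other genes of the TRAF family and its partners, 4 rose and 2 fell in the positive fraction and 1 rose in input. Tifa, which joins TRAF6, rose in both, from 1032 ± 106 to 2366 ± 396 on the tagged ribosomes and from 244 ± 15.3 to 482 ± 84.3 in input. Tank went from 548 ± 72.7 to 888 ± 84.8 and Traf7 from 1288 ± 173 to 1941 ± 158 in the positive fraction, while Traf5 fell from 157 ± 42.9 to 83.4 ± 12.2. The medians were 0.41 and 0.16. Of 5 relatives of Tnfaip2 and Tnfaip8, by name or family, none rose, Tnfaip8l3 fell in the positive fraction (by 0.50, log2, with overlap) and Tnfaip6 fell in input (by 0.80), and the medians were -0.40 and -0.26.

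Of 37 known targets of TNF and NF-kB 33 were tested, and 29 rose in the positive fraction and 21 in input with none lower, at median changes of 1.59 and 0.99. Of the 33, 7 passed the filter through LPS groups alone (Ccl2, Cxcl1, Cxcl10, Cxcl2, Il1b, Sele and Selp) and all 7 were among the rises in both fractions. Of the 26 others 22 rose on the tagged ribosomes and 14 in input. The T cell and monocyte attractant Ccl5 rose from 49.3 ± 7.44 (SD, n = 4) to 6198 ± 2207 (SD, n = 5) in the positive fraction (log2 6.98, adjusted p = 4.00e-11 in edgeR). The chemokine Cxcl10 went from 11.3 ± 4.33 to 773 ± 593 there and from 13.4 ± 5.94 to 473 ± 294 in the lysate. Cxcl1, a neutrophil attractant, went from 5.86 ± 4.04 to 324 ± 241 and from 5.99 ± 7.23 to 270.0 ± 113. The endothelial adhesion genes Sele and Selp rose as well: Sele stood at 0.932 ± 0.841 and 67.0 ± 36.6 in the positive fraction, and Selp at 3.71 ± 1.77 and 165.9 ± 78.0 in input. The LPS effect differed between fractions for 8 of these targets, 7 with the larger effect in the positive fraction and 1, Mmp9, with the larger effect in input.

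Neutrophil markers moved with LPS in both fractions, beside the members and the targets. Of the 10 markers 5 were tested and 4 of them (S100a8, S100a9, Retnlg and Ngp) rose in each fraction. The other 1, Cxcr2, was called in neither. Its mean was 384 in Input PBS and 337 in Input LPS, and 140 in Positive PBS and 143 in Positive LPS. Retnlg and Ngp passed the filter through LPS groups alone, so their place among the tested genes depended on their response. The summed level of the 10 ranged over 464 to 846 in Input PBS, 742 to 1595 in Input LPS, 143 to 311 in Positive PBS and 419 to 1012 in Positive LPS. Cxcr2 was the most abundant of the 10 in both PBS groups, so it weighed most in their sums. The defining marker Ly6g was at 0 in all 17 libraries and Elane at 0 in every LPS library. Of 8 monocyte markers 4 were tested. In PBS animals 3 of these were higher in the positive fraction (median 1.54), beside 21.0% of tested genes. With LPS 1 of them fell there, beside 14.9% of tested genes, and none was called in input. The summed monocyte level was 3557 to 4018 in Positive PBS and 2585 to 3876 in Positive LPS. No T and NK cell marker reached the filter, at summed levels of at most 69.1. The part of all these cells in the change of the members was not tested either.

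Across the 17 libraries the tested genes most like Tnf, by Pearson's r of log2(normalised count + 1) among 12609 genes with a mean of at least 100, were Slc39a1 (0.988), Clec4d (0.984), Fgr (0.983), Socs3 (0.983) and Saa3 (0.983). The libraries share treatment and fraction, so these values describe a common pattern. Clec4d, like Tnf, passed the filter through LPS groups alone, with means of 4.10 in Input PBS and 11.0 in Positive PBS. Its mean of at least 100 rests on the Positive LPS libraries, so its place among the candidates depended on its response. Fgr too had group means over 100 in the LPS groups alone, at 24.5 in Input PBS and 155 in Input LPS, so its place depended on its response as well. Slc39a1, a zinc transporter, did not share the size of the change, rising by 1.202 (log2) on the tagged ribosomes and 0.70 in input. Clec4d, a C-type lectin receptor of myeloid cells, went from a mean of 11.0 to 503 in the positive fraction, Fgr, a Src family kinase of myeloid cells, from 48.8 to 2082, Socs3, an inhibitor of cytokine signalling, from 226 to 2660.4, and Saa3, an acute phase protein, from 639 to 51915.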

How the data were processed

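Estimated counts per RefSeq gene and log2 values from 18 TRAP-RNAseq libraries were used. Per the methods, the authors aligned reads to Mm10 in Strand NGS and normalised with DESeq. The authors deposited estimated counts (81.6% of nonzero values are not whole), which were rounded for fitting, and deposited log2 values relative to the Input PBS median, used only as an alternative added after the data were seen. All columns were assigned to a sample. The members and gene lists were chosen with earlier results of these data known.

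Size factors were medians of ratios over 15766 genes (range 0.766 to 1.32). Genes over 20 normalised counts in every library of at least 1 group were fitted (14803 genes) with edgeR 4.0.16 (quasi-likelihood, R 4.3.3, 1 mean per group, 13 residual degrees of freedom), and p-values were Benjamini-Hochberg adjusted over all of them. The fit was tested on simulated data. Alternatives used DESeq2 1.42.0, limma 3.58.1, TMM scaling, no filter, all 18 libraries, sex as a term, only the libraries compared, the animal as replicate block, and each library or animals 506 and 507 left out. Same-numbered libraries were taken to come from the same animal: the correlation of their deviations from group means was 0.16 to 0.52 in 8 pairs. For libraries of different animals it was -0.41 to 0.37, so the ranges overlap. All 10 members are named. From each list up to 4 called genes with the largest change per fraction were eligible, and the 5 genes most like Tnf. Transcript lengths and 3′ ends are from GENCODE M21 (GRCm38), promoters from RefSeq (GRCm38.p6). Replicates are separate animals.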

Additional observations from a re-analysis of the deposited data

Results flagged for a closer look

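Of 48 groups of values checked for a lone sample, 3 had one, and about 1 group in 20 does so by chance. In Input LPS, animal 270 had 189 normalised counts of Tnfaip8, while the others had 297 to 306. Its log2 ratio of Traf1 to Traf2 was -4.37, while the others had -3.42 to -3.27. In the same group animal 267 had a log2 ratio of Tnfrsf1b to Tnfrsf1a of -2.07, and the others had -1.87 to -1.84.

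The LPS effect differed between the positive fraction and input for 4 members in the edgeR test of the difference itself: by 2.75 on the log2 scale for Traf1, 1.21 for Tnfaip8, 0.57 for Traf2 and -0.53 for Tnfrsf1a.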

How the results depend on the processing

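Of 1338 values of single members under up to 27 alternatives each, 1301 kept their direction and their call. All 10 rises in the positive fraction and 6 of the 7 in input held under every alternative run, the exception being Tnfsf9 in input, which lost its call under 8, with log2 changes of 0.62 to 0.82. Signs turned only for values that were not called: Tnfaip8 in input was -0.0514 without animals 506 and 507, and Tnfsf9 between fractions in PBS animals was 0.0954, 0.0358 and 0.0380 without Input PBS 268, Positive PBS 272 and Input PBS 273, within a range of -0.27 to 0.0954 over single libraries left out. Tnf was called between fractions in PBS animals under 10 alternatives, DESeq2 and limma among them, and its difference of the LPS effect was called under 7. The enrichment of Tnfaip2 after PBS (0.90) lost its call without Input PBS 268, without Input PBS 506 or without animals 506 and 507 (0.84).

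Without animals 506 and 507, 1083 rather than 1839 genes were called for LPS in input and 323 rather than 1018 for the difference between fractions, and 0 rather than 4 members were called for that difference in edgeR, with 5 at an unadjusted p under 0.05 in either case. The replicate block of animals gave 1915 such genes, and of the members only the calls of Tnf changed under it. The ratio differences without animals 506 and 507 were -0.43 and -0.74 for the receptors (positive, input) and 1.603 for the adaptors in the positive fraction. With 1 library left out they ran from -0.59 to -0.46, from -0.77 to -0.68 and from 1.247 to 1.92. These 3 calls held without Positive PBS 268 or Positive LPS 270 and were lost for each of the other 15 libraries (adjusted exact permutation p of 0.0571 to 0.0952). Where the library left out was of the other fraction, the difference did not change and the loss came only from the adjustment over the 4 tests. The smallest p such a test can give rises as libraries are removed. Low counts limit Tnf in PBS animals, Tnfsf9 and Traf1.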
